A study of Rattus norvegicus with 71 samples.

Results

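The 12 arrays described here hold RNA of mesenteric artery from rats of 24 months, of 71 arrays in the series. They were chosen by their tissue, age and strain labels: 6 are labelled Brown Norway (BN) and 6 are labelled Fischer344 × Brown Norway (F344xBN, written FBN here). The series crosses these strains with mesenteric and thoracic artery and with ages of 6, 15 and 24 months, and each sample was hybridised to a 1-colour Affymetrix rat array. BN is an inbred strain, and FBN is its hybrid with Fischer344 rats. No array of these groups carries an added gene, a knockout or a drug in its labels. The protocol text of the samples cites a model in which mesenteric arteries next to an occlusion become collaterals, and does not say which vessels were taken from it. Sex is not given, and nothing in the labels ties an array to an animal of its own, so p-values cover only the spread between arrays, which may be technical.

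Genes that separated the strains in the other groups ran opposite to the labels in these 2 groups. Trio, Echdc2, Msrb3, Itga1 and Prps2 were high in the arrays labelled BN and low in the arrays labelled FBN, while in every other pair of groups they were low in BN and high in FBN. Every strain name for the 24-month mesenteric arrays is therefore given as a label only, "labelled BN" or "labelled FBN". Differences are log2 signal of the arrays labelled FBN minus the arrays labelled BN, so a negative value is higher in the arrays labelled BN.

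Mesenteric arteries are small muscular vessels that carry blood to the gut and contribute to the resistance of the circulation. Their wall holds contractile smooth muscle, an endothelial lining and an adventitia of fibroblasts, nerves and immune cells, and it lies in fat. A probe set reads a short stretch of a transcript, so its signal depends on the amount of transcript and on how well the probes match the sequence of the strain.

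The promoters of Echdc2, Itga1 and Prps2 are shown because all tested probe sets of these 3 genes separated the groups. Each is the 250 bases before the gene start in RefSeq's table for the GRCr8 build, which was made from a BN rat. Echdc2 lies at chr5:128144636-128144885 on the plus strand, Itga1 at chr2:48545284-48545533 on the minus strand and Prps2 at chrX:30592595-30592844 on the plus strand. Capitals mark matches on either strand to the GC box GGGCGG, the CAAT box CCAAT or the TATA box TATAAA.
Echdc2: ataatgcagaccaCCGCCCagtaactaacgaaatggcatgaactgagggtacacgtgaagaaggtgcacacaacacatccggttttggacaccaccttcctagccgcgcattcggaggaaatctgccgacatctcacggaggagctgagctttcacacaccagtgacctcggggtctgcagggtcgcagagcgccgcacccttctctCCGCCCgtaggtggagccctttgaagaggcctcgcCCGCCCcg
Itga1: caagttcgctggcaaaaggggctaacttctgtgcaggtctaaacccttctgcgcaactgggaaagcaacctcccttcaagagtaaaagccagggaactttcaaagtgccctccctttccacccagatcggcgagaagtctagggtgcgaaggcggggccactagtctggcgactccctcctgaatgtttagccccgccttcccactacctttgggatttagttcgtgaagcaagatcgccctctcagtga
Prps2: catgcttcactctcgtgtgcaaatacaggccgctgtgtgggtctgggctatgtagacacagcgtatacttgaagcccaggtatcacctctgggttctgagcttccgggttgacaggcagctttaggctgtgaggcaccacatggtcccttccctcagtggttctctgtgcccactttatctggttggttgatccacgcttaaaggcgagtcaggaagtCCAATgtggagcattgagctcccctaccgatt
The Echdc2 window held 3 matches to GGGCGG, all read from the other strand, the Prps2 window held 1 CCAAT, and the Itga1 window held none of the 3 motifs. Among 33469 promoter windows of this length, 30.5% held the GC box, 34.0% the CAAT box and 12.9% the TATA box. The matches are a description of the letters and not of binding.

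Trio encodes a large signalling protein of the cytoplasm. Its signal was 2832, 3282 and 4019 (lowest, median and highest of 6) in the arrays labelled BN and 212, 255 and 271 in those labelled FBN. The groups did not overlap, and the mean was 13.8-fold higher in the arrays labelled BN. In the 5 other pairs of groups, FBN arrays lay between 1719 and 4801 and BN arrays between 120 and 327. The difference at 24 months was -3.79 ± 0.14 (log2 ± standard error, 6 arrays a group, limma, adjusted p = 4.88e-20), against 3.70 ± 0.14 at 6 months, 3.99 ± 0.14 at 15 months and 3.94 ± 0.24 in thoracic artery at 24 months. The other tested Trio probe set gave -0.16 ± 0.093 (adjusted p = 0.345), so the separation belonged to 1 of 2 probe sets.

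Echdc2 encodes a mitochondrial protein of the enoyl-CoA hydratase family. Its signal was 813, 942 and 1117 in the arrays labelled BN and 38.2, 99.8 and 155 in those labelled FBN. The arrays labelled BN were all above those labelled FBN, the reverse of the other 5 pairs, in which FBN arrays lay between 705 and 1864 and BN arrays between 25.8 and 265. The difference was -3.41 ± 0.25 (limma, adjusted p = 6.9e-12) at 24 months, 3.56 ± 0.25 at 6 months and 3.03 ± 0.25 at 15 months.

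Msrb3 encodes an enzyme that reduces oxidised methionine in proteins. On 1 of its 2 tested probe sets the signal was 2467, 4463 and 6083 in the arrays labelled BN and 413, 473 and 561 in those labelled FBN, with no overlap. The difference of -3.13 ± 0.24 (limma, adjusted p = 1.82e-11) stood against 2.70 ± 0.24 at 6 months and 3.13 ± 0.24 at 15 months. The brighter Msrb3 probe set did not pass the test at 24 months (0.12 ± 0.15, adjusted p = 0.713).

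Itga1, the alpha chain of a collagen-binding integrin, had 1 tested probe set. Its signal was 4976, 7954 and 10826 in the arrays labelled BN and 1608, 1882 and 2597 in those labelled FBN. The arrays labelled BN lay in the range of FBN mesenteric arrays of 6 and 15 months (4823 to 11698), and those labelled FBN overlapped the range of BN arrays of those ages (1741 to 3809). The difference was -1.93 ± 0.20 (limma, adjusted p = 2.24e-08), against 1.62 ± 0.20 at 6 months and 1.76 ± 0.20 at 15 months.

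Prps2 encodes a synthetase of phosphoribosyl pyrophosphate, the starting compound of nucleotide synthesis. All 3 of its tested probe sets were lower in the arrays labelled FBN, by -1.61 ± 0.31, -1.92 ± 0.13 and -1.81 ± 0.20 (limma, adjusted p = 0.000959, 4.18e-13 and 5.08e-08). On the brightest of them the arrays labelled BN read 7168, 8350 and 11155 and those labelled FBN 2007, 2409 and 2634. The groups did not overlap on that probe set, and at 6 and 15 months the FBN arrays (5481 to 11431) were above the BN arrays (2266 to 3151).

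In all, 7 of the 9 tested probe sets of these 5 genes were called lower in the arrays labelled FBN, where 2.46% of all 16717 tested probe sets were. A probe set was called at an adjusted p under 0.05 (Benjamini-Hochberg over all tested probe sets). These genes were given as separating the strains with earlier results of these data known, so their direction is a description and not independent evidence. When the 24-month labels were exchanged in the fit, the difference left between 24 months and the mean of 6 and 15 months was -0.06 ± 0.18 for Trio, 0.12 ± 0.31 for Echdc2, 0.22 ± 0.30 for Msrb3, 0.24 ± 0.25 for Itga1 and 0.37 ± 0.16 for the brightest Prps2 probe set. None of these 5 values passed (limma, adjusted p = 0.925, 0.908, 0.803, 0.714 and 0.287).

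**Figure D1:**
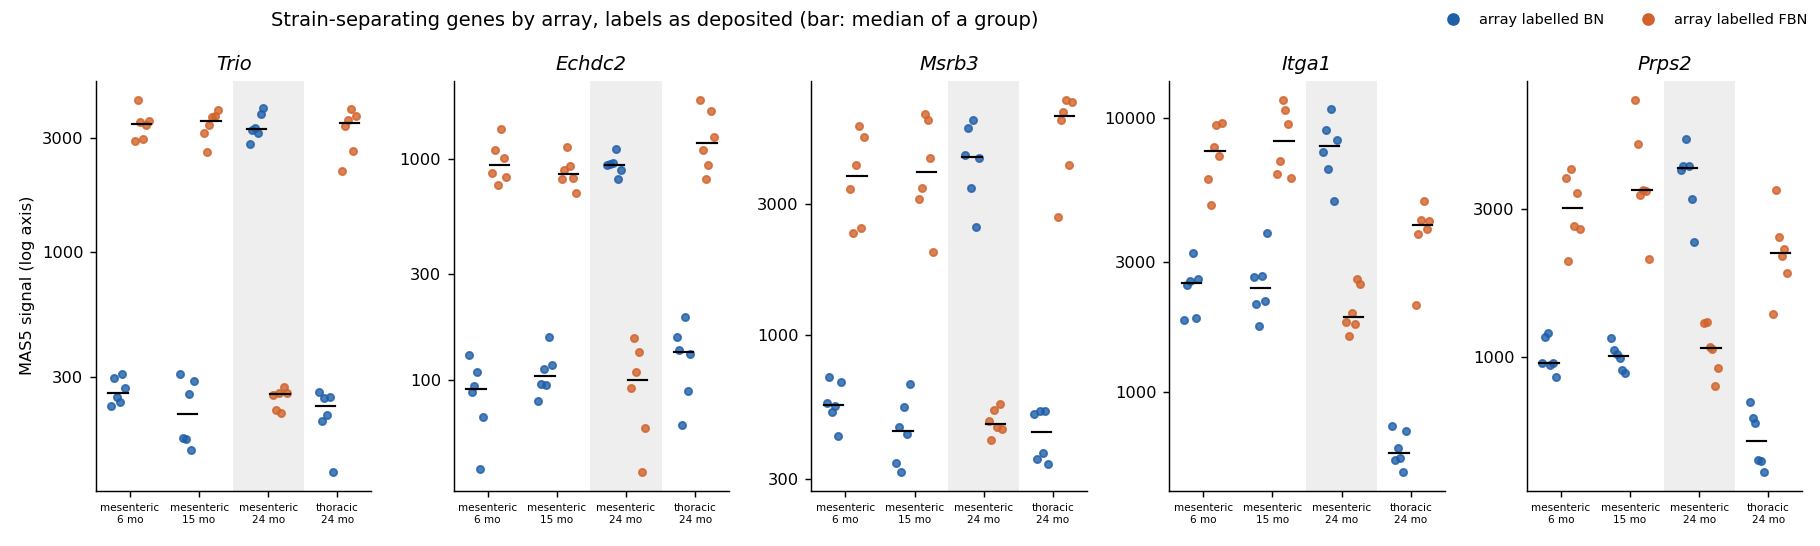
MAS5 signal (log axis) of 5 strain-separating genes by array in mesenteric artery at 6, 15 and 24 months and thoracic artery at 24 months; points are arrays, coloured by their strain label, and bars are group medians, and Prps2 is its second brightest probe set. In the shaded 24-month mesenteric pair the arrays labelled BN are high and those labelled FBN low, as for Trio with medians of 3282 and 255, while the order is the other way in the remaining pairs.

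The reversed order was not limited to these genes. Of the 16717 probe sets tested, 800 (4.79%) were called between the 24-month groups, 388 higher in the arrays labelled FBN (2.32%) and 412 lower (2.46%). They hold 261 named genes that were higher and 267 that were lower. The median size of a called difference was 0.56 on the log2 scale, 103 calls reached a size of 1, and 15 reached a size of 2, all of them lower in the arrays labelled FBN. Of 251 called genes with several tested probe sets, 221 had only 1 probe set called, and 9 had all called in the same direction.

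At 15 months 522 probe sets (3.12%) were called between FBN and BN mesenteric artery, on other arrays (288 higher in FBN, 1.72%, and 234 lower, 1.4%), and 224 of them were also called at 24 months. All 224 had the opposite direction. At 6 months 1804 probe sets (10.8%) were called, 846 higher in FBN (5.06%) and 958 lower (5.73%), and 287 of them were shared with 24 months, 225 in the opposite and 62 in the same direction. In thoracic artery at 24 months 2527 (15.1%) were called, 1193 higher in FBN (7.14%) and 1334 lower (7.98%), and of 234 shared with mesenteric artery 164 were opposite and 70 the same. Between 6 and 15 months, by contrast, 214 of 222 shared calls ran the same way, and between thoracic artery at 24 months and mesenteric artery at 6 months 396 of 457 did.

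The 214 probe sets called in 1 direction at both 6 and 15 months, for 118 genes, take their direction from arrays of those ages. The spread behind these calls came from the fit of all 36 mesenteric arrays, the 24-month ones included. At 24 months 207 of the 214 had the opposite sign and 7 the same sign. Of the 214, 152 were called in the opposite direction, where 4.79% of all probe sets were called, and 0 in the same direction. Their median difference, counted towards FBN, was 0.76 at 6 months, 0.78 at 15 months and -0.63 at 24 months. Of the 121 that were also called in that direction in thoracic artery, 96 (79.3%) were called in the opposite direction at 24 months. The 7 with the same sign included Cpd, a carboxypeptidase, Cacna2d1, an accessory subunit of calcium channels, Dag1, a receptor for basement membrane, and Rps6ka5, a kinase. Their 24-month differences were small (Cpd -0.06, Cacna2d1 0.29, Dag1 -0.04 and Rps6ka5 -0.15), and none passed (adjusted p = 0.802, 0.398, 0.893 and 0.547 by limma). Cpd and Dag1 were chosen after their values were seen.

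**Figure D2:**
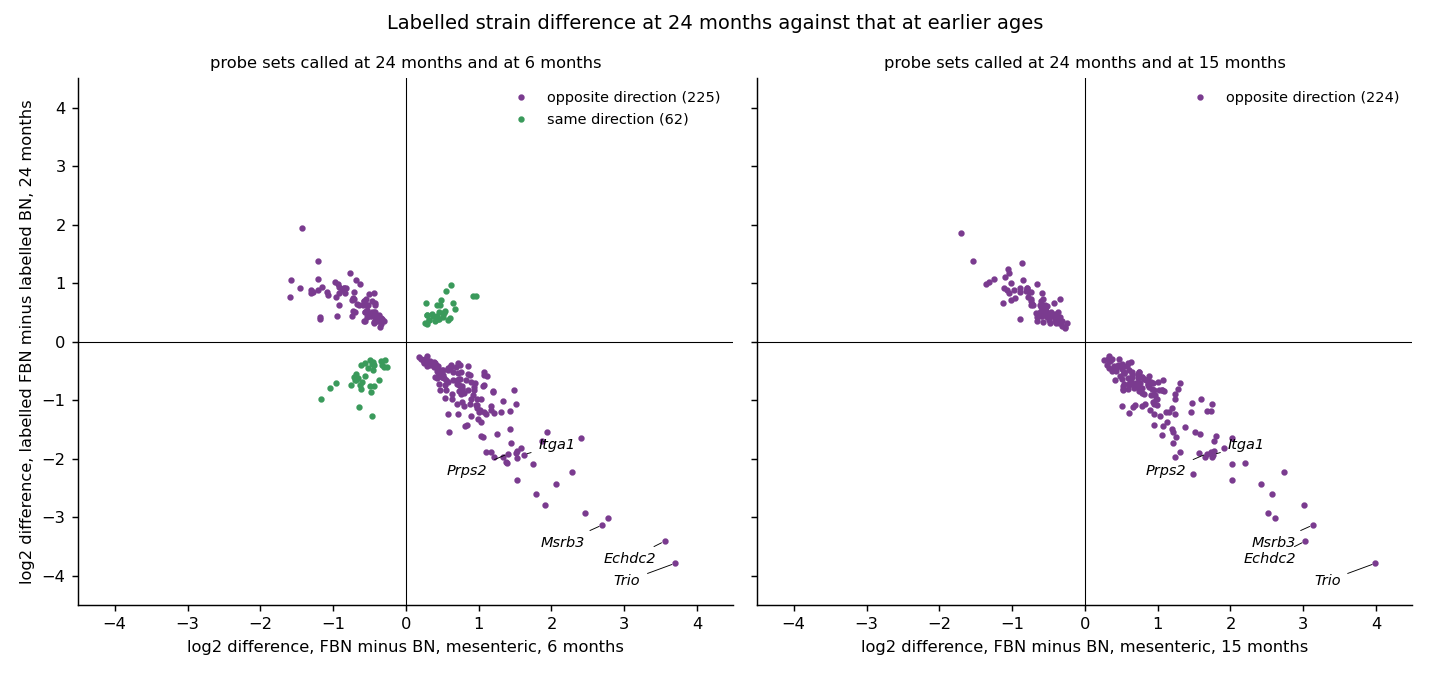
Log2 difference at 24 months (labelled FBN minus labelled BN, vertical axis) against FBN minus BN at 6 months (left) and 15 months (right) in mesenteric artery, for probe sets called at 24 months and at that age; each point is 1 probe set. At 15 months all 224 points lie in the opposite quadrants, and at 6 months 225 do while 62 lie in the same-direction quadrants.

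Tested directly, the labelled difference at 24 months departed from the mean of the 6 and 15 month differences in 1796 probe sets (10.7%), upwards in 953 (5.7%) and downwards in 843 (5.04%). With the 24-month labels exchanged, the same test called 176 (1.05%), upwards in 99 (0.592%) and downwards in 77 (0.461%). Both counts come from 1 fit of the 36 mesenteric arrays, and the comparisons share the 12 arrays of 24 months.

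Beside the strain genes, the largest differences towards the arrays labelled BN were in genes with mixed roles. Fubp3, a nucleic-acid-binding regulator of transcription, read 734, 797 and 826 in the arrays labelled BN and 156, 209 and 253 in those labelled FBN. The groups were far apart (-1.97 ± 0.13, limma, adjusted p = 6.83e-13), and the earlier differences were 1.33 at 6 and 1.65 at 15 months. Its other tested probe set did not pass (0.28, adjusted p = 0.184).

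Stat3, a transcription factor of cytokine signalling, read 2699, 3468 and 4211 in the arrays labelled BN and 801, 1111 and 1374 in those labelled FBN. The groups did not overlap (-1.60 ± 0.14, limma, adjusted p = 3.82e-10). The difference was 0.35 at 6 months (adjusted p = 0.0975) and 1.06 at 15 months, so even with exchanged labels the 24-month difference was larger than the earlier mean by 0.90 ± 0.17 (adjusted p = 0.00346). The other Stat3 probe set gave 0.12 (adjusted p = 0.581).

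Grifin, a galectin-related protein first described in the lens, ranged widely in the arrays labelled BN (428, 1657 and 3362) and narrowly in those labelled FBN (247, 348 and 479). The groups overlapped through labelled BN array 4, and the difference was -2.08 ± 0.33 (limma, adjusted p = 6.28e-05). It was 1.39 at 6 and 2.19 at 15 months (adjusted p = 0.0059 and 3.33e-05). Gnas, an imprinted locus that encodes the stimulatory G protein subunit and other products, read 448, 666 and 898 against 109, 173 and 218 on 1 probe set, with no overlap (-1.98 ± 0.28, adjusted p = 1.21e-05). On that probe set the difference was 0.70 at 6 and 1.24 at 15 months (limma, adjusted p = 0.1 and 0.00751). A second, dimmer Gnas probe set was also lower (-1.44, adjusted p = 0.00565), and the brightest one, with means of 25840 and 25210, was not called (-0.03, adjusted p = 0.9).

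Dmp1, a protein of mineralised matrix, read 139, 290 and 449 in the arrays labelled BN and 54.1, 83.8 and 162 in those labelled FBN. The groups overlapped slightly, and the difference was -1.65 ± 0.30 (limma, adjusted p = 0.000429). It was 2.41 at 6 months and 2.02 at 15 months, and 5.2 in thoracic artery of the same age.

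On the same side were 3 genes of immune cells, RT1-Ba, RT1-Db1 and Pilra. FBN minus BN was instead 1.37, 0.28 and 0.38 at 6 months (limma, adjusted p = 0.0154, 0.643 and 0.451). At 15 months it was 1.13, 0.62 and 0.74, and none passed. In thoracic artery at 24 months it was 0.46, 1.86 and 1.46 (adjusted p = 0.215, 0.00214 and 6.38e-05). With the 24-month labels exchanged, none was called as departing from the earlier mean (adjusted p = 0.452, 0.12 and 0.169). RT1-Ba, a chain of rat MHC class II, read 1863, 3005 and 11984 in the arrays labelled BN and 494, 849 and 1018 in those labelled FBN. The groups did not overlap (-2.06 ± 0.37, limma, adjusted p = 0.000446), but the other 2 RT1-Ba probe sets gave 0.46 and 0.63 and did not pass (adjusted p = 0.503 and 0.346). RT1-Db1, another class II chain, read 705, 913 and 2840 against 152, 298 and 408 (-1.90 ± 0.36, adjusted p = 0.000813), and its other probe set gave -0.11. MHC genes are polymorphic and have near-identical copies, so the probe sets that differ are uncertain as measures of these genes.

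Pilra, an inhibitory receptor of myeloid cells, read 513, 773 and 1991 in the arrays labelled BN and 153, 269 and 530 in those labelled FBN (-1.69 ± 0.32, limma, adjusted p = 0.000704). The groups overlapped, since the lowest array labelled BN (513) was below the highest labelled FBN (530). Labelled BN array 5 was the highest of the 12 arrays for RT1-Ba, RT1-Db1 and Pilra, and without it the differences were -1.69, -1.61 and -1.44 (adjusted p = 0.00149, 0.00359 and 0.0031). The same array was the highest of the 12 in the macrophage list, described with the other cell types further on. In bulk tissue, fewer cells of a type and less RNA per cell cannot be told apart.

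Towards the arrays labelled FBN the largest difference was in Ltbp2, a matrix protein of elastic fibres. It read 332, 599 and 1428 in the arrays labelled BN and 1064, 2478 and 6309 in those labelled FBN. The ranges overlapped (1.94 ± 0.37, limma, adjusted p = 0.000784). At 6 months Ltbp2 had been lower in FBN (-1.43 ± 0.37, adjusted p = 0.0108), and at 15 months it did not pass (-0.16, adjusted p = 0.873). In thoracic artery at 24 months it did not pass either (0.84, adjusted p = 0.159). With the 24-month labels exchanged, its departure from the earlier mean was not called (-1.15 ± 0.45, adjusted p = 0.25). The medians of the arrays at 6 and 15 months lay between 251 and 588, so the median of the arrays labelled FBN at 24 months was the highest of the 6 mesenteric groups.

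Nupr1, a nuclear protein induced by stress, read 7827, 8790 and 12297 in the arrays labelled BN and 12988, 20113 and 25274 in those labelled FBN. The groups did not overlap (1.05 ± 0.15, limma, adjusted p = 8.59e-06). The difference was -1.57 at 6 months and -0.31 at 15 months, where it did not pass (adjusted p = 0.297).

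Tes, a LIM protein of focal adhesions, read 1464, 2197 and 3731 against 4147, 5269 and 6199, and Nkd2, an inhibitor of Wnt signalling, 387, 573 and 794 against 953, 1126 and 1489. Both were higher in all 6 arrays labelled FBN than in any labelled BN (1.12 ± 0.21 and 1.01 ± 0.17, limma, adjusted p = 0.000589 and 0.000174), and neither passed at 6 or 15 months. Rnf40, a ubiquitin ligase that acts on histones, read 183, 229 and 359 against 391, 507 and 626, again without overlap (1.07 ± 0.15, adjusted p = 1.43e-05). In 1 fit of all 71 arrays the calls of Tes and Nkd2 ended (adjusted p = 0.179 and 0.12), and that of Rnf40 did not. The other Tes probe set did not pass at 24 months (0.29, adjusted p = 0.295).

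Ctdspl, a small phosphatase, read 463, 614 and 787 in the arrays labelled BN and 890, 1222 and 1591 in those labelled FBN, without overlap (1.01 ± 0.23, limma, adjusted p = 0.00513). It had been lower in FBN at 6 and 15 months (-0.97 and -1.31), and its other 2 probe sets did not pass at 24 months. Jund, an AP-1 transcription factor, gave 1.35 ± 0.21, Slco1a4, an organic anion transporter, 1.24 ± 0.27, Pik3r1, a regulatory subunit of a lipid kinase, 1.22 ± 0.25, and Cdh3, a cadherin, 1.06 ± 0.24. These 4 passed (limma, adjusted p = 6.28e-05, 0.00366, 0.00232 and 0.00573), and in each the groups overlapped. At 15 months Jund and Slco1a4 had been lower in FBN (-0.86 and -1.05, adjusted p = 0.0157 and 0.0205). Pik3r1 and Cdh3 did not pass there, and none of the 4 passed at 6 months. The brighter Jund probe set did not pass (0.33, adjusted p = 0.155).

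Hba-a3, an alpha-globin of red cells, read 706, 1243 and 1781 against 1291, 4860 and 10431 (1.86 ± 0.48, limma, adjusted p = 0.0163). Without labelled FBN array 6, the highest, its adjusted p was 0.0551. It had been lower in FBN at 15 months (-1.71, limma, adjusted p = 0.0407) and did not pass at 6 months (-0.67, adjusted p = 0.37). Cbr3, a carbonyl reductase, was higher by 1.07 ± 0.30 (adjusted p = 0.0307), and its call ended in 7 of 12 fits that left out 1 array, those of labelled FBN arrays 1 to 4 and labelled BN arrays 1, 2 and 4 (adjusted p = 0.0532 to 0.105). Cbr3 had been lower in FBN at 6 and 15 months (-1.20 and -1.25, limma, adjusted p = 0.00899 and 0.0125). With the 24-month labels exchanged, it departed from the earlier mean by 0.16 (adjusted p = 0.898).

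**Figure D3:**
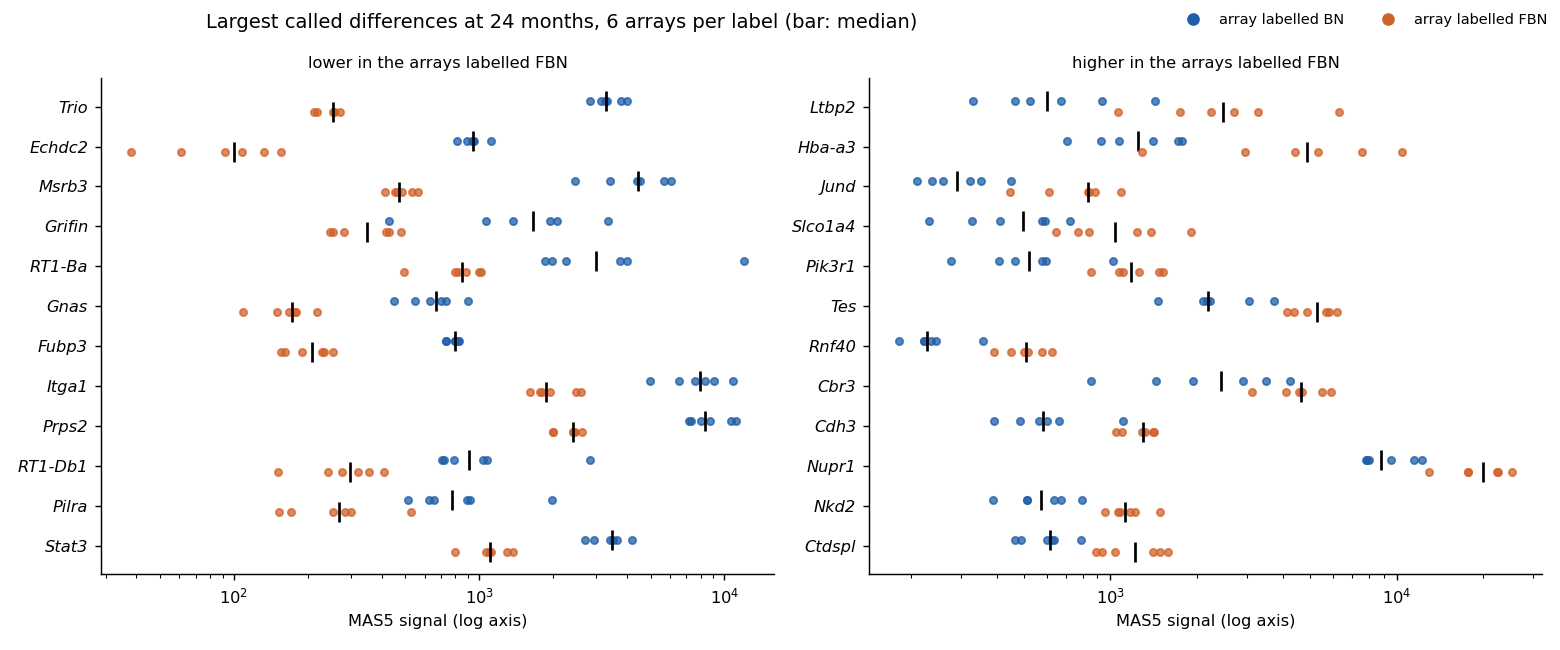
MAS5 signal (log axis) of the 12 genes with the largest called difference in each direction at 24 months; points are arrays by label and bars are group medians. The groups are apart in Trio, Fubp3 and Stat3 on the left and in Tes, Rnf40, Nupr1 and Nkd2 on the right, and overlap in Grifin, Ltbp2 and Hba-a3.

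The markers of the vessel wall were present at high signal in both groups. Acta2 and Myh11, contractile proteins of smooth muscle, had medians of 33187 and 50301 in the arrays labelled BN and 30326 and 56526 in those labelled FBN. Pecam1, an endothelial adhesion molecule, had medians of 3632 and 4799. Adipoq, a hormone of fat cells, had medians of 11219 and 13387 and fell to 1022 in the lowest array, so fat was measured with the vessels. Ucp1, which marks brown fat, had low medians of 43.6 and 28.6, and its difference did not pass (adjusted p = 0.79 by limma).

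Of 15 tested smooth muscle contractile genes 0 were called by their brightest probe set, where 4.79% of all probe sets were called, so counts of 0 in lists of this size lie near that share. Their median difference was 0.22, where that of all tested probe sets was 0.01. All 15 had differences above 0, from 0.01 to 0.35. Of 13 endothelial genes 0 were called (median 0.25), of 12 white adipocyte genes 0 (median 0.12) and of 11 fibroblast and adventitia genes 0 (median -0.23). The smallest adjusted p in these 4 lists was 0.0604 by limma. Counting every tested probe set, 1 of 26 for the contractile list and 1 of 17 for the fibroblast and adventitia list were called lower.

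Of 15 macrophage genes 0 were called, and all 15 lay below 0, from -0.88 to -0.18 (median -0.59). Their smallest adjusted p was 0.167. The mean log2 signal of the list was 10.18, 11.22 and 12.58 in the arrays labelled BN and 9.91, 10.85 and 11.12 in those labelled FBN, so the groups overlapped. Labelled BN array 5 was the highest at 12.58, and it was also the lowest of the 12 for contractile genes (13.93). The T, NK and B lymphocyte list read 7.50 to 8.42 against 6.46 to 7.67. Of its 5 tested genes 1 was called, where 4.79% of all probe sets were. It was Cd3g of the T cell receptor complex (-1.0 ± 0.30, limma, adjusted p = 0.0447). That call ended in 8 of 12 fits without 1 array, those of labelled BN arrays 1, 2, 3 and 5 and labelled FBN arrays 2, 3, 5 and 6 (adjusted p = 0.0514 to 0.157). The part of these cells in the RT1-Ba, RT1-Db1 and Pilra differences was not tested. Without labelled BN arrays 4 and 5 those differences kept their calls (limma, adjusted p = 0.00201, 0.00753 and 0.00398). That fit does not take away the difference in the macrophage list. Labelled BN arrays 1 and 3, which remain in it, read 11.54 and 11.66, above every array labelled FBN.

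**Figure D4:**
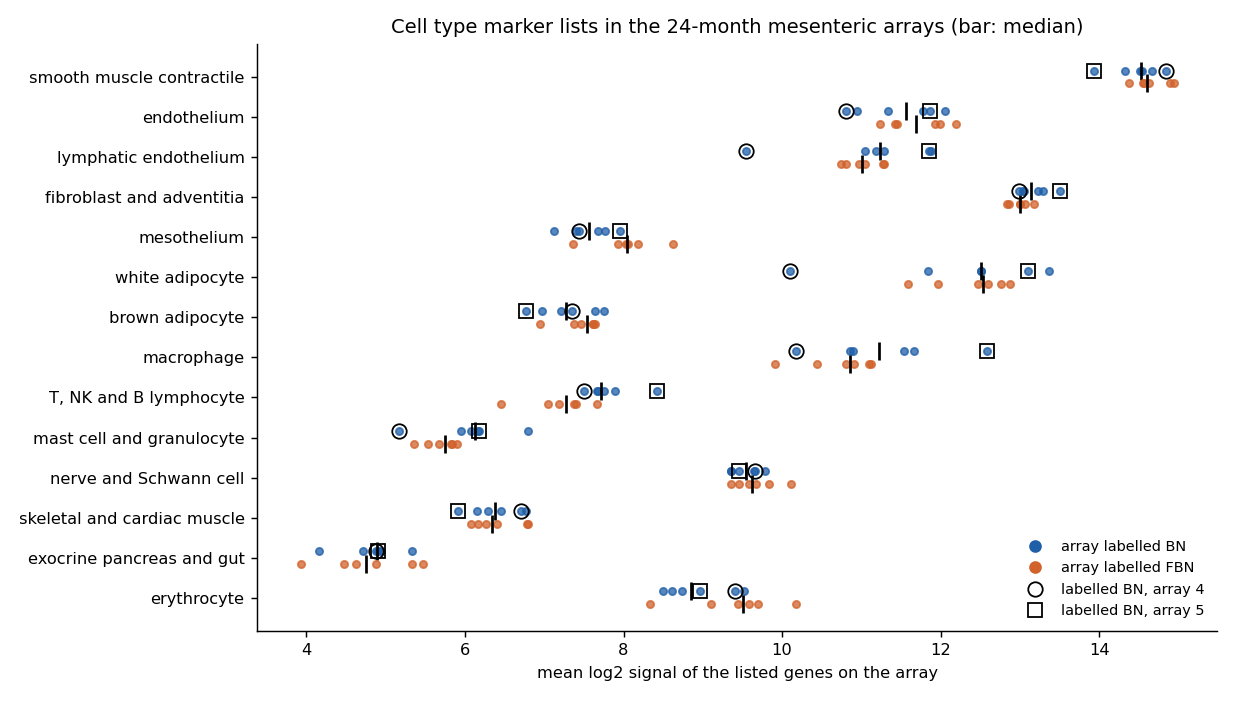
Mean log2 signal of each cell type marker list by array in the 24-month mesenteric groups; points are arrays by label, bars are medians, and an open circle and square mark labelled BN arrays 4 and 5. Array 5 is highest for macrophage genes at 12.58 and array 4 lowest for white adipocyte genes at 10.10, while the medians for contractile genes are 14.53 and 14.60.

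Among 533 listed genes measured by their brightest probe set, 23 were called at 24 months, where 4.79% of all probe sets were, and 25 of 41 lists with a tested gene held 0 calls. These counts depend on the probe set read, and by the brightest one neither Trio nor Msrb3 was called. Counting every tested probe set changed the number of calls in at least 14 of the 42 lists. Of 15 ion channels of vascular tone 2 were higher in the arrays labelled FBN, where 2.32% of all probe sets were, and 0 lower. Trpm4, a cation channel that depolarises smooth muscle, read 571, 656 and 776 in the arrays labelled BN and 852, 972 and 1139 in those labelled FBN, with no overlap (0.56 ± 0.11, limma, adjusted p = 0.000806). It did not pass at 6 or 15 months (-0.01 and -0.35, adjusted p = 0.979 and 0.0696). Ano1, a chloride channel, gave 0.87 ± 0.26 (adjusted p = 0.0433).

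Of 13 integrins 2 were higher, where 2.32% of all probe sets were, and Itga1, a strain gene given in advance, was lower. Itgb5, a beta chain, read 4316, 4880 and 5547 against 5985, 6639 and 8186 (0.45 ± 0.090, limma, adjusted p = 0.00138), with no overlap, and its other probe set was higher too (0.41, adjusted p = 0.0401). The first Itgb5 probe set had been lower in FBN at 6 months (-0.51 ± 0.090, limma, adjusted p = 0.000253). It did not pass at 15 months (0.06, adjusted p = 0.779). Itgav, an alpha chain that pairs with Itgb5, gave 0.52 ± 0.15 at 24 months (limma, adjusted p = 0.0356).

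Of 21 genes of fatty acid oxidation Acaa2 and the strain gene Echdc2 were lower, where 2.46% of all probe sets were, and 0 were higher. Acaa2, a mitochondrial thiolase, read 3635, 4629 and 5971 in the arrays labelled BN and 2289, 2916 and 3461 in those labelled FBN, without overlap (-0.71 ± 0.12, limma, adjusted p = 0.000152). It had been higher in FBN at 15 months (0.94) and did not pass at 6 months (0.12, adjusted p = 0.531). Of 18 genes of nucleotide synthesis the strain gene Prps2 was lower and Gart higher (0.36 ± 0.092, limma, adjusted p = 0.0158), where 4.79% of all probe sets were called.

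Of 16 interferon-stimulated genes 1 was lower, where 2.46% of all probe sets were, and 0 were higher. That gene, Ifi27, read 11780, 15429 and 20130 against 7146, 9046 and 11409 (-0.80 ± 0.15, limma, adjusted p = 0.000644). The groups did not overlap, and 14 of the 16 lay below 0 (median -0.20). Of 10 cell cycle genes only Ccnd2 was called, where 4.79% of all probe sets were. Of 7 nerve and Schwann cell genes only Uchl1 was called. In these lists 8 and 2 genes lay below 0 (medians -0.09 and 0.18). Counting every tested probe set, 2 of 12 cell cycle probe sets were higher. Of 10 nerve and Schwann cell probe sets 1 was higher and 1 lower. At 6 months Uchl1 had been lower in FBN (-0.97 ± 0.17, limma, adjusted p = 0.000191). Ccnd2, a cyclin of the cell cycle list, read 8754, 9208 and 10949 against 11206, 14926 and 18241 (0.63 ± 0.13, adjusted p = 0.00241), and Uchl1, a ubiquitin hydrolase of nerve cells, 902, 1124 and 1373 against 1521, 1874 and 2361 (0.76 ± 0.17, adjusted p = 0.00399). Neither overlapped.

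In the matrix lists Ltbp2 was 1 of 12 elastic fibre genes called, where 4.79% of all probe sets were. Counts of 1 in lists of this size lie near that share. Counting every tested probe set of the elastic fibre list, 1 of 16 was higher and 1 lower. Sparc, a matrix glycoprotein, was 1 of 17 called in the fibrillar collagen and matrix list, and its 2 probe sets disagreed: the brighter was higher in the arrays labelled FBN (0.38 ± 0.11, limma, adjusted p = 0.0383) and the other lower (-0.42 ± 0.11, adjusted p = 0.0134). Timp3, an inhibitor of matrix proteases, was 1 of 11 called (0.33 ± 0.087, adjusted p = 0.0181). Cry2 of the clock (0.42 ± 0.12, adjusted p = 0.044), Pmvk of cholesterol synthesis (0.60 ± 0.16, adjusted p = 0.0168) and Rac2, a GTPase of blood cells (-1.05 ± 0.30, adjusted p = 0.0343), were the calls of 3 more lists. These lists had 16, 16 and 15 tested genes, so each of these calls lies near the same share. Of 21 MHC class I and II genes 0 were called by their brightest probe set, and counting every tested probe set 2 of 30 were lower.

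The calls of 8 of these genes ended in between 1 and 8 of the 12 fits that left out 1 array, with adjusted p from 0.0524 to 0.132, and each of the 12 arrays ended at least 1 call. Gart lost its call without labelled BN array 1 (adjusted p = 0.062). Pmvk lost it without labelled BN array 4 or labelled FBN array 5 or 6. Timp3 lost it without labelled BN array 1 or 5 or labelled FBN array 5 or 6, and Rac2 without labelled BN array 1, 3 or 5 or labelled FBN array 4, 5 or 6. Sparc, Ano1, Itgav and Cry2 lost it in 7 or 8 of the 12 fits. In 1 fit of all 71 arrays, Acaa2, Ccnd2, Itgb5 and Uchl1 did not pass (adjusted p = 0.257 to 0.497), and Trpm4 and Ifi27 did.

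The test with exchanged labels shows what remains different from the earlier ages when the 24-month labels are read the other way round. It takes the arrays labelled BN minus those labelled FBN at 24 months, less the mean of FBN minus BN at 6 and 15 months. Of the 176 probe sets it called (1.05%), 114 were also called between the 24-month groups, where 4.79% of all probe sets were. Both tests hold the same 24-month difference, so a large overlap follows from how they are built. Of the 24 genes with its largest differences, Tes, Nkd2 and Rnf40 were also among the largest of the labelled comparison.

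Among probe sets with a gene symbol the call with the smallest p was Raph1, an adaptor that links Ras signalling to actin. Its signal was 1364, 1595 and 1787 in the arrays labelled BN and 671, 782 and 993 in those labelled FBN at 24 months, 1246, 1355 and 1711 in BN and 505, 645 and 811 in FBN at 6 months, and 597, 763 and 815 in BN and 704, 741 and 855 in FBN at 15 months. The labelled groups were apart and in the same order at 6 and 24 months, and overlapped at 15 months. The difference was -0.99 ± 0.11 at 24 months and -1.16 ± 0.11 at 6 months, and the exchanged test gave 1.54 ± 0.13 (limma, adjusted p = 1.21e-09).

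Stk25, a kinase of the Golgi, read 1190, 1213 and 1418 in the arrays labelled BN and 1946, 2050 and 2200 in those labelled FBN at 24 months. At 6 months BN arrays read 1133, 1305 and 1406 and FBN arrays 1608, 1832 and 1926, and at 15 months the ranges of 1664 to 1977 and 1378 to 2260 overlapped. As with Raph1, the labelled order was the same at 6 and 24 months (0.72 ± 0.085 at 24 and 0.49 ± 0.085 at 6 months, limma, adjusted p = 3.8e-07 and 0.000247).

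Nutf2, which carries Ran into the nucleus, had the same form, at 1459, 1604 and 1938 against 2309, 2583 and 2943 at 24 months and 0.65 ± 0.11 at 6 months (limma, adjusted p = 0.000141). Igfbp5, a binding protein of insulin-like growth factors, read 1126, 1343 and 2624 in the arrays labelled BN and 605, 864 and 1333 in those labelled FBN, which overlapped, and it was lower in FBN at 6 months as well (-1.04 ± 0.19, adjusted p = 0.000281). The other 3 Igfbp5 probe sets did not pass at 24 months. Pip4k2a, a lipid kinase, Tns1, a focal adhesion protein, and Prune2 were lower in the arrays labelled FBN at both 6 and 24 months and not called at 15 months (adjusted p = 0.85, 0.947 and 0.937). The other tested probe sets of Nutf2, Pip4k2a, Tns1 and Prune2 did not pass at 24 months, and in 1 fit of all 71 arrays Prune2 did not pass (adjusted p = 0.403).

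Of the 800 probe sets called at 24 months, 62, for 46 genes, were also called at 6 months in the same direction as labelled. They were 29 of the 388 higher and 33 of the 412 lower in the arrays labelled FBN. At 6 months 5.06% of all probe sets were called higher in FBN and 5.73% lower. Whether 62 is more than these shares give was not tested. This set was chosen after its values were seen. Its median difference, counted in the 24-month direction, was 0.50 at 24 months, 0.49 at 6 months and -0.06 at 15 months. The likeness of the medians at 24 and 6 months in sign follows from how the set was chosen. At 15 months 2 of the 62 were called, where 3.12% of all probe sets were, 0 of them in that direction, and 43 had the opposite sign. In thoracic artery of 24 months, where 15.1% of all probe sets were called, 19 were called in that direction and 2 in the opposite one.

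Other genes of the exchanged test passed between the groups at 24 months and did not pass at 6 or 15 months. Nfe2l1, a transcription factor of proteasome genes, read 2040, 2418 and 2880 in the arrays labelled BN and 3748, 4111 and 5155 in those labelled FBN (0.83 ± 0.12, limma, adjusted p = 7.29e-06), against adjusted p = 0.0562 at 6 and 0.328 at 15 months. Bhlhe22, a transcription factor of neurons, read 504, 769 and 856 against 201, 287 and 497 (-1.22 ± 0.26, adjusted p = 0.00265), and Acot2, a mitochondrial thioesterase, 501, 685 and 946 against 268, 339 and 413 (-1.06 ± 0.17, adjusted p = 6.28e-05). None of these 3 overlapped. Nes, an intermediate filament protein, was 0.82 ± 0.17 higher (adjusted p = 0.00194), with differences of 0.00 and 0.01 at 6 and 15 months. In 1 fit of all 71 arrays Acot2, Bhlhe22 and Nes did not pass at 24 months (adjusted p = 0.0732, 0.0597 and 0.209), and Nfe2l1 did. Other probe sets of Nfe2l1 and Acot2 did not pass at 24 months either.

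Rps6ka5 and Cacna2d1 passed at 6 and 15 months and not at 24 months. Rps6ka5 gave -1.08 ± 0.13 and -0.71 ± 0.13 at the earlier ages and -0.15 ± 0.13 at 24 months, a departure from the earlier mean of 0.74 ± 0.16 with labels as deposited (adjusted p = 0.00121) and of 1.05 ± 0.16 with labels exchanged (limma, adjusted p = 0.000176). The other tested Rps6ka5 probe set gave -0.10, -0.10 and -0.02 at 6, 15 and 24 months. It did not pass in the exchanged test (0.12, limma, adjusted p = 0.733). Cacna2d1 gave 0.62 and 0.71 and then 0.29, a departure that did not pass with labels as deposited (-0.38, adjusted p = 0.303). Its exchanged test (-0.96, adjusted p = 0.0199) did not pass without labelled BN array 5 (adjusted p = 0.0516).

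The exchanged calls of Tes, Nes, Ggnbp2, Mga and Rnf144a ended in 5 to 10 of the 12 fits without 1 array, and each array but labelled FBN array 2 ended at least 1 of them (adjusted p = 0.0512 to 0.111). Those of Fryl, Igfbp5, Nfe2l1, Nutf2, Pip4k2a, Raph1, Rps6ka5, Stat3, Stk25, Tns1 and Wbp4, 11 of 27, held under every alternative in which they were tested.

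**Figure D5:**
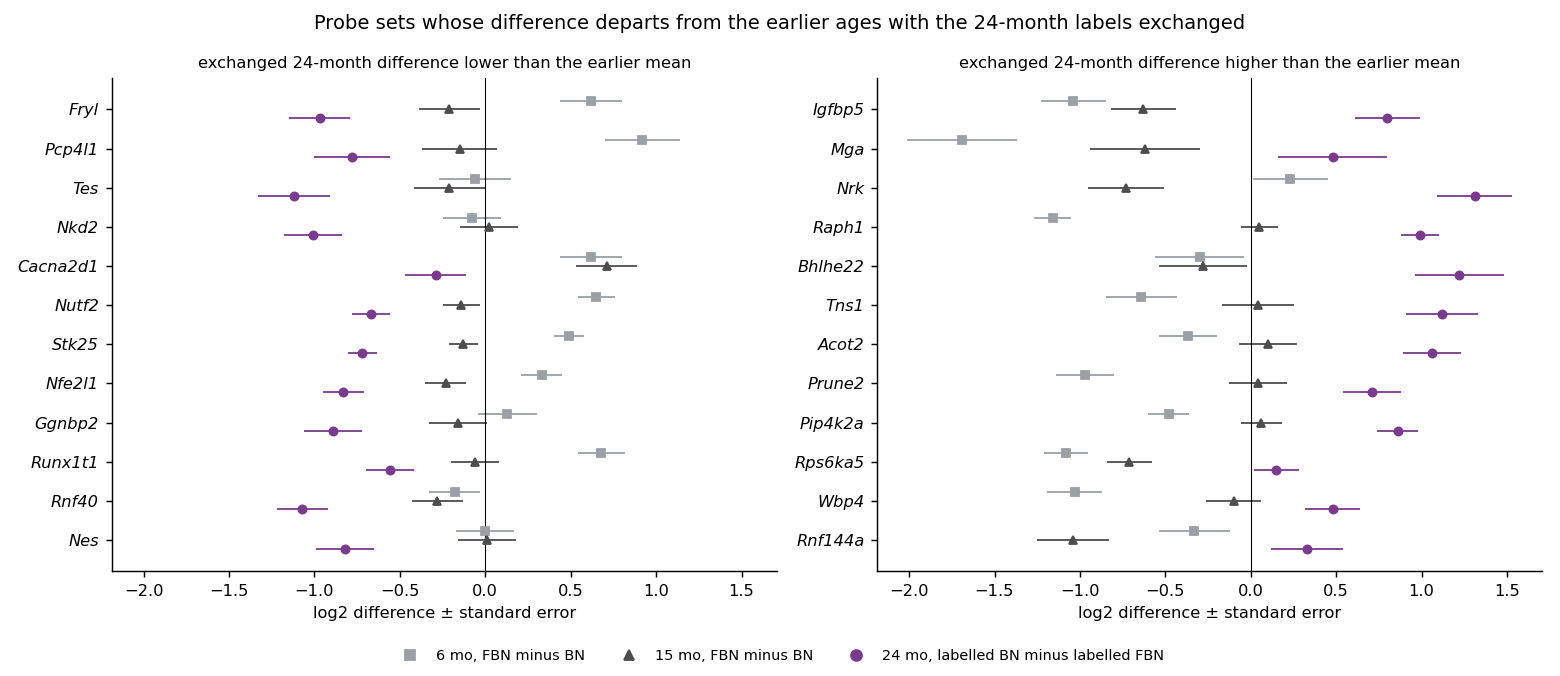
Log2 difference ± standard error in mesenteric artery for the 24 genes named by the test with exchanged 24-month labels; squares are FBN minus BN at 6 months, triangles at 15 months, and circles the arrays labelled BN minus those labelled FBN at 24 months. For Raph1, Stk25 and Nutf2 the squares and circles lie on opposite sides of 0 and the triangles near 0.

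The 12 arrays had medians of 288 to 346.4, and their tissue pieces weighed 11.3 ± 1.4 mg (SD, labelled BN) and 14.8 ± 5.3 mg (labelled FBN). The number of arrays limits the precision of every value. Signals near the end against near the start of the Gapdh transcript, a sign of RNA quality, differed by 0.573 ± 0.19 and 0.889 ± 0.32 on the log2 scale (SD, n = 6 each). None of 6 such array values passed between the labels by a two-sided exact permutation test (smallest p = 0.0671, adjusted p = 0.403, smallest possible p = 0.00216). Labelled BN arrays 4 and 5 had the lowest median correlations with their group across probe sets, 0.950 and 0.935, where the other 10 arrays had 0.954 to 0.975, so array 4 lay close to the lowest of those. The correlation between arrays 4 and 5 was 0.892. Without both, 477 probe sets were called in place of 800, and 91 in place of 176 in the exchanged test. The part of these array differences in the results was not tested.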

How the data were processed

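In all, 71 samples of rat artery were measured on 1-colour Affymetrix arrays, and the 12 described here are mesenteric artery of 24 months. The deposited intensity values are linear MAS5 signals, made with GCOS and MAS5 per the submitters' processing notes, with versions not given in the sources used here. Their 2% trimmed mean was 1000.3 to 1000.4 on every array. Log2 was taken without an offset. Detection calls and scan dates were not used here.

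Of 31099 probe sets, 57 controls were left out, with those whose mean log2 signal was under 8.19 (signal 292.4) in both the mesenteric and the thoracic arrays, and 16717 were tested. By the platform annotation 20832 probe sets carry a single gene symbol, 436 carry more and 9831 carry no symbol here. Only those with 1 symbol are named, and 20764 of their gene identifiers matched RefSeq's table.

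Groups follow the labels, with the 24-month mesenteric strain labels kept as deposited. Arrays are numbered in accession order. The mean differences came from limma 3.58.1 (R 4.3.3, lmFit and eBayes with trend and robust estimates) over 36 mesenteric arrays, and over 35 arrays for thoracic artery, with Benjamini-Hochberg adjustment over all tested probe sets and calls at 0.05. A list gene was read by its brightest probe set. The result of 1 list is not reported here. The named genes are the 12 largest called differences in each direction of the labelled and exchanged comparisons with a signal of at least 500, the 5 strain genes, up to 4 called genes per list and up to 3 per direction elsewhere, with 1 probe set per gene. Other named genes, among them the cell type markers, were chosen after their values were seen. The members and lists were chosen with earlier results of these data known. The alternatives were quantile normalization, an offset of 100, no filter and a stricter filter (signal 1127.9), no trend or robust estimates, array weights, tissue mass as a covariate, 1 fit of all 71 arrays, the 12 arrays alone and each array left out. The fits were tested on simulated data.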

Additional observations from a re-analysis of the deposited data

Results flagged for a closer look

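The labelled strain difference at 24 months was tested against the mean of the differences at 6 and 15 months, as an interaction in limma. It departed in 58 of the 76 named probe sets, where it did so in 10.7% of all tested probe sets. Many were named for calls that use these same arrays, so a high count follows from that choice. Values are log2, and a negative value is a shift towards the arrays labelled BN. The strain genes shifted the following way, Trio by -7.64, Echdc2 by -6.70, Msrb3 by -6.05, Itga1 by -3.62 and Prps2 by -3.46 and -3.55. Other shifts towards the arrays labelled BN were Grifin by -3.87, Dmp1 by -3.86, Fubp3 by -3.46, RT1-Ba by -3.31, Gnas by -2.95, Scd by -2.75, RT1-Db1 by -2.35, Stat3 by -2.31, Pilra by -2.25 and Cd3g by -1.33. Smaller shifts of that kind were Acaa2 by -1.24, Ifi27 by -1.22, Nrk by -1.06, Acot2 by -0.92, Tns1 by -0.82, Arhgef18 by -0.73, Pip4k2a by -0.65, Dock1 by -0.43 and Raph1 by -0.43. Towards the arrays labelled FBN the shifts were Alb by 3.08, Hba-a3 by 3.06, Ltbp2 by 2.74, Cbr3 by 2.29, Ctdspl by 2.15, Ccl11 by 2.10, Slco1a4 by 2.07, Jund by 2.03, Nupr1 by 1.99, Pik3r1 by 1.81 and Grem1 by 1.74. They were followed by Wfdc21 by 1.69, Cdh3 by 1.53, Ano1 by 1.51, Rnf40 by 1.30, Tes by 1.26, Uchl1 by 1.2, Nkd2 by 1.04, Ggnbp2 by 0.90, Pmvk by 0.86, Ccnd2 by 0.81 and Nes by 0.81. The smallest of these were Nfe2l1 by 0.78, Fryl by 0.77, Kalrn by 0.75, Rps6ka5 by 0.74, Trpm4 by 0.74, Itgb5 by 0.68, Cry2 by 0.54, Stk25 by 0.54, Nutf2 by 0.41, Timp3 by 0.40 and Arhgef2 by 0.39. A shift also holds the earlier differences. Ccl11, Grem1, Wfdc21, Alb, Rps6ka5 and Scd did not pass between the groups at 24 months. Ccl11 and Grem1 gave 0.40 and 0.46 there and -2.36 and -2.08 at 6 months. Scd gave 3.65 at 6 and -1.82 at 15 months, and Rps6ka5 gave -0.15 at 24 months.

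With the 24-month labels exchanged, the same test called 27 named genes, where it called 1.05% of all tested probe sets. Most of the 27 were named because they had the largest called differences of this test, so a high count follows from that choice. The exchanged difference was below the earlier mean in Fryl by -1.17, Pcp4l1 by -1.16, Tes by -0.99, Nkd2 by -0.98, Cacna2d1 by -0.96, Nutf2 by -0.92, Nfe2l1 by -0.89 and Stk25 by -0.89. It was also below in Ggnbp2 by -0.87, Runx1t1 by -0.87, Rnf40 by -0.84, Nes by -0.82, Kalrn by -0.80 and Sparc by -0.70. It was above the earlier mean in Igfbp5 by 1.63, Mga by 1.63, Nrk by 1.56, Raph1 by 1.54, Bhlhe22 by 1.51, Tns1 by 1.42, Acot2 by 1.19 and Prune2 by 1.17. Above it too were Pip4k2a by 1.07, Rps6ka5 by 1.05, Wbp4 by 1.04, Rnf144a by 1.02 and Stat3 by 0.90.

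Among 180 groups of 6 arrays checked, a single array stood apart in 11, where chance gives about 1 in 20. Labelled BN array 4 was lowest for Angptl8 (16.4, next 363), Pmvk (1271, next 1696) and the lymphatic endothelium list (mean log2 signal 9.54, next 11.05). Labelled BN array 5 was highest for RT1-Db1 (2840, next 1077) and lowest for Runx1t1 (398, next 580). Labelled BN array 6 was lowest for Nrk (263, next 415) and Sparc (12038, next 17538), and labelled BN array 3 for Upk1b (103, next 200). Labelled FBN array 5 was lowest for RT1-Ba (494, next 795) and the brown adipocyte list (6.94, next 7.38), and labelled FBN array 3 for Prune2 (176, next 300).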

How the results depend on the processing

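Array weights raised the calls from 800 to 1550 at 24 months, to 1108 at 15 months, to 2779 and 378 for the departure from the earlier ages with labels as deposited and exchanged, and to 9829 in thoracic artery. The stricter filter tested 8968 probe sets and gave 444 calls at 24, 1120 at 6 and 221 at 15 months, 1035 and 95 for the departures and 1669 in thoracic artery. In 1 fit of 71 arrays the counts were 405, 1051 and 280 at 24, 6 and 15 months, 1061 and 71 for the departures and 5494 in thoracic artery, and 380 of the 405 were among the 800. With tissue mass as a covariate thoracic artery gave 923. Without labelled BN arrays 4 and 5, an alternative chosen after seeing the data, 477 and 91 were called at 24 months and in the exchanged test, 445 and 91 of them shared. Why these counts moved was not tested. Leaving out each array gave 547 to 938 calls at 24 months, 1411 to 2080 and 137 to 190 for the departures.

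No call of a named gene changed direction under these alternatives. Of 61 named probe sets called at 24 months 32 passed in every alternative in which they were tested, and of 27 in the exchanged test 11 did. A probe set removed by the stricter filter was not tested there. The fit of the 12 arrays alone was not run for the exchanged test. No paired analysis was possible because the labels carry no replicate numbers, and those used here follow accession order. The number of arrays limits the precision of small differences.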

Other observations

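Both tested erythrocyte genes lay above 0 in the arrays labelled FBN (0.44 and 0.75) without passing, and all 7 tested mesothelial genes lay above 0, from 0.05 to 0.74, with 0 called (smallest adjusted p = 0.136 by limma). Msln, a surface protein of mesothelium, had medians of 334 and 494. Scd, a desaturase of fatty acid synthesis, was 3.65 higher in FBN at 6 months and did not pass at 24 months (-1.83, adjusted p = 0.0768), and Alb, the plasma protein albumin, gave 1.83 at 24 months (adjusted p = 0.0607). Tiparp, a poly-ADP-ribosyl transferase chosen after its value was seen, was among the named genes with a size of at least 2, at -2.27.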
